A study of Homo sapiens with 8 samples.

Results

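The APOBEC3 cytidine deaminases are 7 neighbouring genes, APOBEC3A, APOBEC3B, APOBEC3C, APOBEC3D, APOBEC3F, APOBEC3G and APOBEC3H, taken by symbol from a count table of 61228 gene symbols. All 7 had an entry in the table. Their mRNA was measured by RNA sequencing in 8 clones of RPMI-8402, an established human line of T-cell acute lymphoblastic leukaemia, grown untreated. Per the series' design text, the homeobox gene NKX2-1 was targeted in this line, and the procedure gave 4 knockout clones (C12, C15, S04 and S36) and 4 wild-type clones (WT10, WT13, WT28 and WT30). The labels do not say which edit was made, what the letters C and S stand for, or whether clones were cultured on the same day, and each library is a clone of 1 line, so p-values measure the spread between clones. In these clones APOBEC3C was the most abundant member, followed by APOBEC3F and APOBEC3G. APOBEC3H was low, APOBEC3D lay at or near the limit of detection, APOBEC3A had 1 count in all and APOBEC3B had none. None of the 4 members with enough counts to test passed the test between knockout and wild-type clones. In such bulk libraries, fewer cells with an mRNA and less of it per cell cannot be told apart.

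APOBEC3 enzymes turn cytosine into uracil, mainly in single-stranded DNA. They restrict retroviruses and retrotransposons by mutating newly made viral or retroelement DNA, and in T cells APOBEC3G and APOBEC3F are best known for acting on HIV that lacks its Vif protein. The same activity on the cell's own DNA is a source of mutations in tumours, for which APOBEC3A and APOBEC3B are the members most often named. Each enzyme holds either a single zinc-binding deaminase domain or a tandem pair, in which a histidine and a pair of cysteines bind zinc and a glutamate takes part in catalysis.

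The genes stand in 1 row on the plus strand of chromosome 22 (hg38, GENCODE release 29). APOBEC3A runs from 38952741 to 38992778, APOBEC3B from 38982347 to 38992804 and APOBEC3C from 39014083 to 39020352. APOBEC3D runs from 39021113 to 39033276, APOBEC3F from 39040604 to 39053910, APOBEC3G from 39077005 to 39087743 and APOBEC3H from 39097224 to 39104067. All are annotated as protein-coding. A search of each gene's principal coding sequence for the zinc-binding signature found 1 copy in APOBEC3A, APOBEC3C and APOBEC3H and 2 copies in APOBEC3B, APOBEC3D, APOBEC3F and APOBEC3G. The coding DNA of these copies is shown because members share whole stretches of it, which bears on how far a sequencing read can be given to 1 gene. Capitals mark the codons of the histidine, the glutamate and the 2 cysteines, and all sequences read 5′ to 3′ from the spliced coding sequence of GENCODE release 29.
APOBEC3A, the same as APOBEC3B domain 2: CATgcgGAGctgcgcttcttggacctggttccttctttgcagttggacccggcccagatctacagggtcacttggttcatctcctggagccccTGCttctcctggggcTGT
APOBEC3F domain 1, the same as APOBEC3B domain 1: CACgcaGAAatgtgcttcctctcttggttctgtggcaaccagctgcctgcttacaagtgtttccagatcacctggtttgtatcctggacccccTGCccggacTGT
APOBEC3D domain 1: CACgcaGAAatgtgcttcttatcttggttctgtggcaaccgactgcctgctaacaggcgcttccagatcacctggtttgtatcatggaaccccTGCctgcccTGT
APOBEC3F domain 2, the same as APOBEC3D domain 2: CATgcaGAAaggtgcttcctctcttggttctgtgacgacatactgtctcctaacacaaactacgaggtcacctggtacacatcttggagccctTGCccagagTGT
APOBEC3C: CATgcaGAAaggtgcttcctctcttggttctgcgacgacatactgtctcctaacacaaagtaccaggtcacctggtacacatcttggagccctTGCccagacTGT
APOBEC3G domain 1: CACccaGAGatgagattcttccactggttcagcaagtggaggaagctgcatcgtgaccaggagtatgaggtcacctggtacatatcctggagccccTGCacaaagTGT
APOBEC3G domain 2: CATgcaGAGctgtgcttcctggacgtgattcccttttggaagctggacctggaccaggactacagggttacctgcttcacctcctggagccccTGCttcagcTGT
APOBEC3H: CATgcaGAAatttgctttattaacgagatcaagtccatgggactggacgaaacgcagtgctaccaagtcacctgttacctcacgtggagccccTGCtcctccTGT

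The stretch of APOBEC3A and that of APOBEC3B domain 2 were identical over 111 bases. APOBEC3B domain 1 matched APOBEC3F domain 1 at 105 of 105 bases, and APOBEC3D domain 2 matched APOBEC3F domain 2 at 105 of 105. APOBEC3C shared 101 of 105 bases with that last pair (96.2%), while APOBEC3G domain 2 and APOBEC3H shared 61.9%. Across whole principal transcripts, APOBEC3G and APOBEC3F had an identical run of 206 bases, APOBEC3D and APOBEC3F one of 222 and APOBEC3A and APOBEC3B one of 196. The share of a transcript's 100-base windows found in no other member was 100% for APOBEC3C and APOBEC3H, 90.8% for APOBEC3D, 88.7% for APOBEC3G, 87.3% for APOBEC3A, 86.5% for APOBEC3F and 63.5% for APOBEC3B. Most 100-base windows therefore belonged to 1 member, and APOBEC3B had the most in common with the others. With 50-base windows the share was 49.5% for APOBEC3B, 76.0% for APOBEC3F, 77.9% for APOBEC3A, 80.9% for APOBEC3G and 84.8% for APOBEC3D. It was 98.8% for APOBEC3C and 100% for APOBEC3H. The sources used here do not say how reads that map to several places were counted, so the values of APOBEC3A, APOBEC3B, APOBEC3D, APOBEC3F and APOBEC3G are uncertain to that extent.

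Genes also overlap in the annotation. In APOBEC3D, 2104 of 2528 exon bases (83.2%) lie in a readthrough gene on the same strand, ENSG00000284554, which had 0 counts in every clone and shares 17 exon bases (0.603%) with APOBEC3C. APOBEC3A and APOBEC3B share 348 exon bases, and APOBEC3B-AS1, a gene on the opposite strand with 0 counts in every clone, overlaps both. The sources used here give neither the strand setting nor the handling of reads in overlapping genes.

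Library totals ran from 18453947 to 22916424 counts in wild-type clones and from 2730285 (C15) to 25423215 (C12) in knockout clones. A gene with 0 counts could have had up to 3, a limit of 0.116 CPM (counts scaled to a common normalised library size) in C12 and 1.21 CPM in C15, and such limits and the intervals for single clones cover counting error only. NKX2-1 itself was at 83.6 CPM in S04, 72.0 in C12, 33.4 in S36 and 11.3 in C15, with wild-type clones at 53.6 to 63.2 (log2 difference -0.15, SE 0.42, edgeR adjusted p = 0.905), so its mRNA does not check the edit. T-lineage markers (CD3D, LCK and others) summed to 2979 to 3228 CPM in knockout and 3078 to 3514 in wild-type clones, and 13 of the 14 reached 1 CPM in some clone. Of 10 myeloid markers, 5 (LYZ, CD68, CD33, S100A8 and FCGR3A) had no counts, and the list summed to 1.15 to 3.68 CPM in knockout and 0.577 to 2.22 in wild-type clones. B-cell markers summed to 7.0 to 14.3 and 9.95 to 16.9 CPM in the same order, with MS4A1 at 0. NK-cell markers summed to 17.5 to 21.5 and 18.5 to 34.1, with NCR1 at 0, and fibroblast and epithelial markers to 6.19 to 14.4 and 12.7 to 20.1, with 5 of 10 at 0.

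Levels of different members were compared as CPM per kilobase of the principal transcript. In wild-type clones APOBEC3C, a single-domain enzyme, stood at 32.8 ± 3.10 CPM per kilobase (SD, n = 4). APOBEC3F was at 8.14 ± 0.184, APOBEC3G at 5.88 ± 1.36, APOBEC3H at 0.659 ± 0.349 and APOBEC3D at 0.151 ± 0.0916 CPM per kilobase. The knockout means followed the same order, at 33.4 ± 10.4 for APOBEC3C, 9.31 ± 1.17 for APOBEC3F, 4.35 ± 2.86 for APOBEC3G, 1.05 ± 0.382 for APOBEC3H and 0.196 ± 0.133 for APOBEC3D. APOBEC3C did not overlap APOBEC3F in any clone, since its lowest value, 19.9 CPM per kilobase in S04, was above the highest of APOBEC3F, 10.6 in C15. APOBEC3F was above APOBEC3G in every clone, but their 95% counting intervals overlapped in 3 clones, C12 (9.07 and 8.31 CPM per kilobase), WT10 (8.34 and 7.40) and WT28 (7.90 and 6.43). On principal transcript lengths APOBEC3G was above APOBEC3H in every clone. Their intervals overlapped in 2 clones, C15 (1.98 from 9 counts against 0.817 from 2 counts) and S36 (2.54 against 1.62). APOBEC3H lay above APOBEC3D in every clone, with intervals that overlapped in 4 of the 8, C15, WT10, WT13 and WT30. The length used for APOBEC3D includes the 2104 of 2528 bases that lie in the readthrough gene. If reads in those bases were not counted, its level per kilobase is too low. The order of APOBEC3H and APOBEC3D may therefore depend on a counting rule that is not known.

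**Figure D1:**
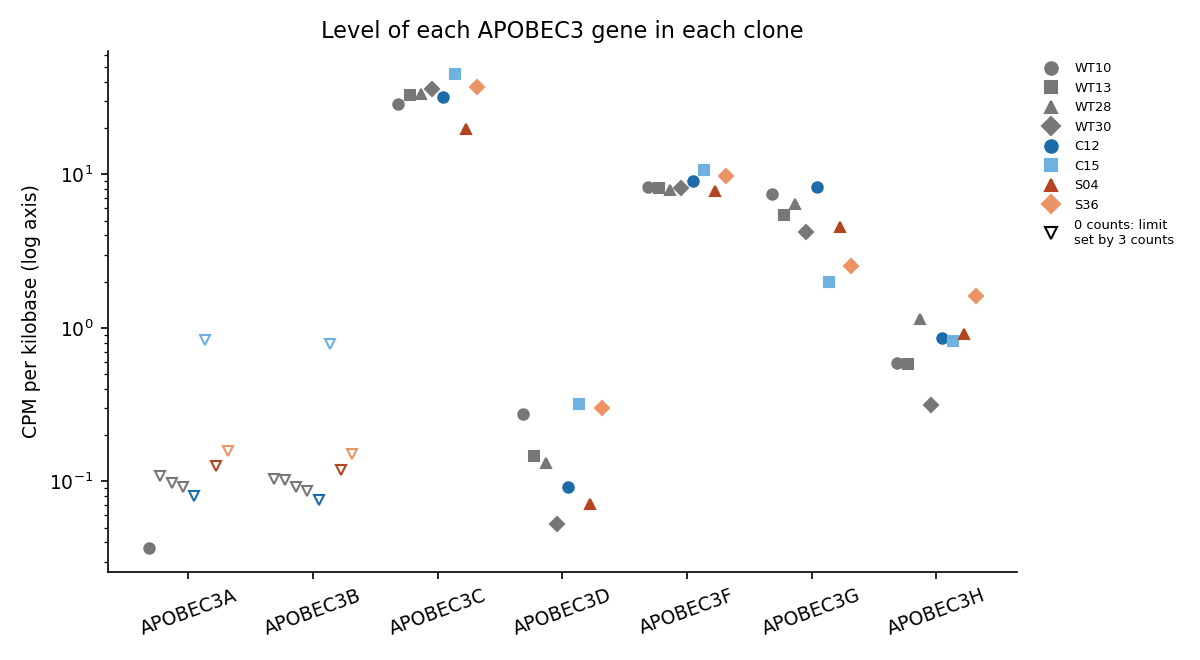
Level of each APOBEC3 gene in each clone, in CPM per kilobase of principal transcript on a log axis; grey points are wild-type clones, coloured points knockout clones, and open triangles mark clones with 0 counts at the limit that 3 counts set. APOBEC3C stands highest in all 8 clones, and the APOBEC3G points of C15 and S36 lie below those of the 4 wild-type clones.

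Summed over the 7 genes, APOBEC3 mRNA came to 45.2 to 49.3 CPM per kilobase in wild-type clones. Among knockout clones S04 had the lowest sum, 33.3, followed by C12 at 50.2, S36 at 51.0 and C15 at 58.6, so S04 lay below the wild-type range and the other knockout clones above it. APOBEC3C made up 68.8% ± 4.42 of the sum in wild-type and 68.0% ± 7.72 in knockout clones (SD, n = 4 each). APOBEC3F made up 17.1% and 19.7%, APOBEC3G 12.4% and 9.66%, and APOBEC3H 1.38% and 2.26%, in the same order. The share of APOBEC3G in knockout clones ran from 3.38% in C15 and 4.98% in S36 to 13.7% in S04 and 16.5% in C12. In wild-type clones it ran from 8.65% to 16.4%. All these shares use the principal transcript, which for APOBEC3G has 1834 bases, against 5437 in the union of its exons. Its share depends on that choice.

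**Figure D2:**
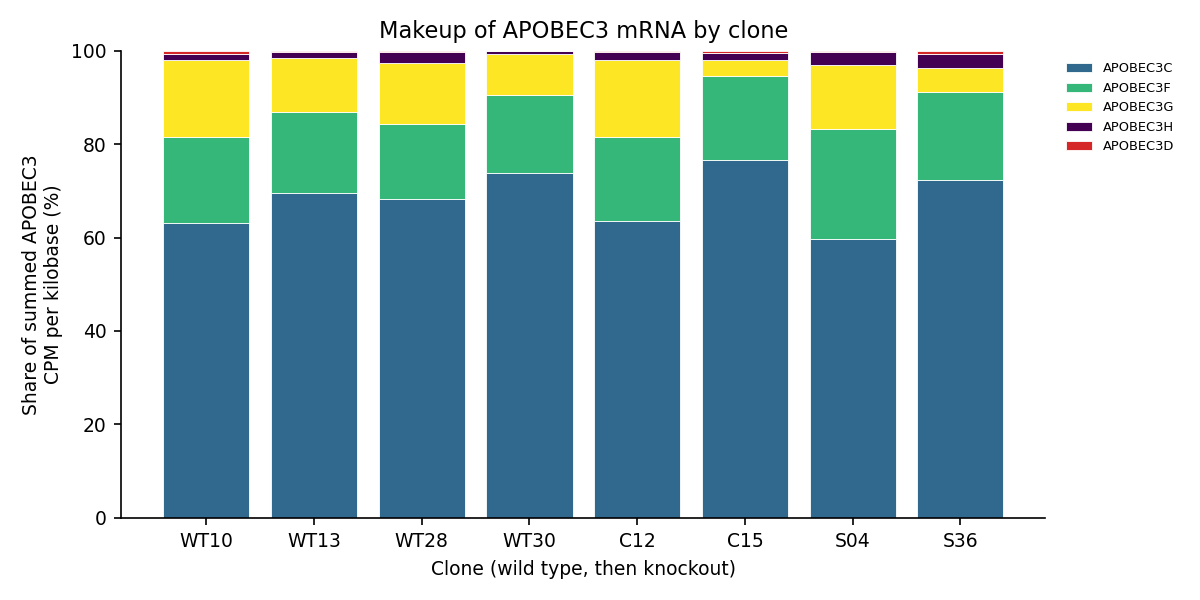
Share of the summed APOBEC3 CPM per kilobase held by each member in each clone, in percent, with APOBEC3C at the bottom of each bar; APOBEC3A and APOBEC3B are too low to draw. The APOBEC3G segment is 3.38% in C15 and 4.98% in S36, and lies between 8.65% and 16.5% in the other clones.

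APOBEC3A and APOBEC3B, the members most often tied to tumour mutation, were at or near 0 counts. APOBEC3A had 1 count, in WT10. APOBEC3B had 0 counts in each of the 8 clones. IRF9, a widely expressed gene of interferon signalling, was also listed at 0 in every clone, so the 0 of APOBEC3B is given as listed and not as absence of its mRNA. Set against the limit of 3 counts for APOBEC3B in the same clone, APOBEC3C per kilobase was 274-fold higher in WT10 and 414-fold higher in WT30. In knockout clones it was from 56.8-fold higher in C15, the shallowest library, to 422-fold in C12. That limit covers counting error only, so these folds do not hold if APOBEC3B reads were lost in mapping or counting, which was not tested. Both groups lay at or under the limit, so no fold between groups is read for either gene. With no filter on low counts, APOBEC3A had a log2 difference of -1.47 (SE 1.51, edgeR adjusted p = 0.630), which rests on its 1 count.

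Differences between knockout and wild-type clones were tested with edgeR's quasi-likelihood test over 14243 genes. APOBEC3C, APOBEC3F, APOBEC3G and APOBEC3H entered the test, and APOBEC3A, APOBEC3B and APOBEC3D did not pass the filter on low counts, which asks for about 0.522 CPM in 4 clones. APOBEC3C, APOBEC3F and APOBEC3G reached that level in all 8 clones, and APOBEC3H in 4 knockout and 3 wild-type clones. Of the 4 tested members, 0 passed an adjusted p of 0.05, as against 45 of all tested genes, or 0.316%. By an unadjusted p under 0.05 it was also 0 of 4, where 15.5% of all tested genes passed. The intervals that follow say what size of difference each member's data allow.

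APOBEC3C was at 89.9, 126, 56.1 and 104 CPM in C12, C15, S04 and S36. The wild-type clones WT10, WT13, WT28 and WT30 were at 80.5, 92.7, 94.8 and 101 CPM. Knockout clones lay on both sides of the wild-type range, with C15 and S36 above it, S04 below it and C12 inside it. The mean was 94.0 ± 29.4 CPM in knockout and 92.4 ± 8.73 in wild-type clones (SD, n = 4 each), and the fitted log2 difference was 0.02 (SE 0.22, edgeR adjusted p = 0.982). Its 95% interval ran from -0.46 to 0.49, or from 0.728-fold to 1.40-fold. The sign of this difference was not stable: it was -0.16 without C15 and 0.20 without S04.

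APOBEC3F, which has tandem deaminase domains, was at 24.4, 28.7, 21.1 and 26.1 CPM in C12, C15, S04 and S36, against 22.5, 22.1, 21.3 and 21.8 in WT10, WT13, WT28 and WT30. The wild-type clones lay within 1.06-fold of each other, 3 knockout clones lay above all of them, and S04 lay just below. The mean was 25.1 ± 3.16 CPM in knockout and 21.9 ± 0.495 in wild-type clones (SD, n = 4 each). The log2 difference was 0.18 (SE 0.15, 95% interval -0.15 to 0.52, edgeR adjusted p = 0.595). An exact two-sided permutation test over the 70 assignments of clones to groups gave p = 0.143, where the smallest possible p is 0.0286.

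APOBEC3G is the tandem-domain enzyme best known for restricting HIV. C12 had 15.2 CPM (395 counts), C15 3.63 (9 counts), S04 8.39 (139 counts) and S36 4.66 (61 counts). Wild-type clones were at 13.6, 10.0, 11.8 and 7.73 CPM, from 174 to 255 counts. C15 and S36 lay below every wild-type clone, S04 lay inside the wild-type range and C12 above it. The 95% Poisson interval was 3.57 to 5.99 CPM in S36 and 1.66 to 6.90 in C15, against 6.62 to 8.96 in WT30, the lowest wild-type clone. The interval of S36 did not reach that of WT30, while that of C15, the shallowest library, did. The mean was 7.98 ± 5.25 CPM in knockout and 10.8 ± 2.50 in wild-type clones (SD, n = 4 each). The fitted log2 difference was -0.35 (SE 0.38, 95% interval -1.19 to 0.48, edgeR adjusted p = 0.699). The exact permutation test used the difference of mean log2 CPM, which was -0.62, and gave p = 0.286. The fitted difference was -0.88 without C12 (edgeR adjusted p = 0.161), -0.18 without C15 and -0.13 without S36.

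The ratio of APOBEC3G to APOBEC3F in CPM showed the same clones apart. C15 had the lowest ratio, 0.127, then S36 with 0.178, S04 with 0.397 and C12 with 0.624. The wild-type range was 0.354 to 0.604. C15 and S36 thus had less APOBEC3G for their APOBEC3F than any wild-type clone, and 1 C-named and 1 S-named clone were on that side. The genes share 11.3% of the 100-base windows of APOBEC3G, so reads in those windows could be given to either.

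APOBEC3H, a single-domain enzyme, had 2 to 24 counts per clone. It was at 0.849, 0.807, 0.906 and 1.60 CPM in C12, C15, S04 and S36, against 0.585, 0.577, 1.13 and 0.311 in WT10, WT13, WT28 and WT30. WT28 lay inside the knockout range, and the other wild-type clones lay below it. The mean was 1.04 ± 0.378 CPM in knockout and 0.651 ± 0.345 in wild-type clones (SD, n = 4 each), with a log2 difference of 0.70 (SE 0.47, edgeR adjusted p = 0.501). Its 95% interval, from -0.32 to 1.73, spans 0.802-fold to 3.31-fold, so at this depth neither an equal level nor a 3.31-fold higher one is outside it. The exact permutation p was 0.114.

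APOBEC3D, a tandem-domain enzyme, had 51 counts over all clones. It was at 0.232, 0.807, 0.181 and 0.764 CPM in C12, C15, S04 and S36, and at 0.692, 0.367, 0.330 and 0.133 in WT10, WT13, WT28 and WT30. The groups overlapped throughout, and most of its exons lie under the readthrough gene described above. With no filter on low counts, its log2 difference was 0.11 (SE 0.78, edgeR adjusted p = 0.957).

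**Figure D3:**
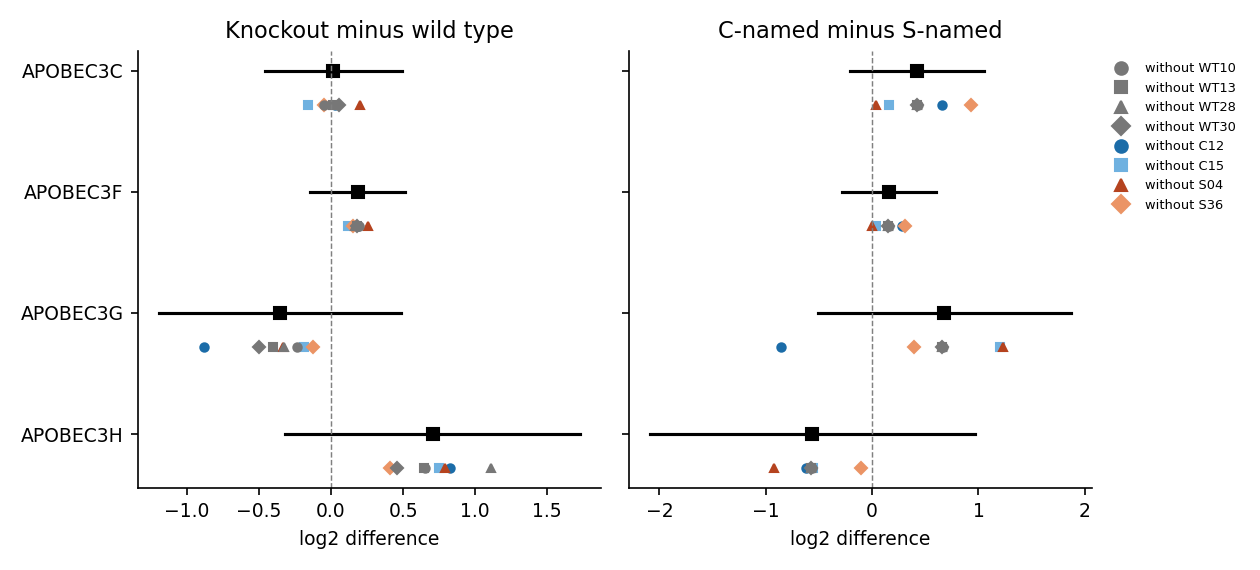
Log2 differences of the 4 tested APOBEC3 genes between knockout and wild-type clones (left) and between knockout clones named C and those named S (right); black squares are edgeR estimates with 95% intervals, and the coloured and grey points beneath each are the estimates with 1 clone left out. All 8 intervals cover 0, and the APOBEC3G estimate moves furthest when C12 is left out, to -0.88 on the left and -0.85 on the right.

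The spread between clones was wider in the knockout group for 3 of the 4 tested members. The SD of log2 CPM was 0.50 in knockout and 0.14 in wild-type clones for APOBEC3C, 0.18 and 0.033 for APOBEC3F, 0.91 and 0.35 for APOBEC3G, and 0.42 and 0.63 for APOBEC3H. The same held for 88.9% of all tested genes, whose median SD was 0.47 in knockout and 0.18 in wild-type clones, so the wider spread was not particular to these genes. The highest knockout clone exceeded the lowest by 4.19-fold for APOBEC3G, 2.25-fold for APOBEC3C and 1.36-fold for APOBEC3F. In wild-type clones those ratios were 1.76, 1.26 and 1.06. Of the 4 members, APOBEC3F had the smallest SD in both groups.

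A fit with 3 groups set the 2 knockout clones named C against the 2 named S. Of the 4 tested members 0 passed, where 0.358% of all tested genes did. C-named minus S-named log2 differences were 0.43 for APOBEC3C (SE 0.28, edgeR adjusted p = 0.476) and 0.68 for APOBEC3G (SE 0.53, edgeR adjusted p = 0.551). They were 0.16 for APOBEC3F (edgeR adjusted p = 0.732) and -0.56 for APOBEC3H (edgeR adjusted p = 0.719). For APOBEC3G the 2 clones sharing a letter lay further apart than the letters did, and leaving out C12 turned its difference from 0.68 to -0.85. This comparison shares its knockout clones with the one above.

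The genes around the APOBEC3 row were examined to see whether they moved with it. Of 16 listed neighbours on chromosome 22, 13 were tested, 0 rose and 1 fell, where 0.14% and 0.176% of all tested genes did. By an unadjusted edgeR p under 0.05 it was 5 of the 13, where 15.5% of all tested genes passed. The median log2 difference of the neighbours was -0.02 against 0.02 over all tested genes. CBX7, a Polycomb subunit gene that lies 16.1 kb beyond APOBEC3H on the minus strand (39120167 to 39152674), was at 1.89, 0.807, 1.33 and 1.45 CPM in C12, C15, S04 and S36. Its wild-type levels in WT10, WT13, WT28 and WT30 were 4.79, 6.66, 5.52 and 5.24 CPM, so the groups did not overlap, as was so for 10.1% of all tested genes. CBX7 fell by 1.90 on the log2 scale (SE 0.28, edgeR adjusted p = 0.033). The adjusted p was above 0.05 without S04 (0.075), S36 (0.062), WT10 (0.094), WT13 (0.12), WT28 (0.092) or WT30 (0.14), with log2 differences of -1.98 to -1.82, and also in thinned libraries (0.067) and with C-named clones alone (0.13). APOBEC3H, the member nearest to it, did not pass, as given above.

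Among the other neighbours, CBX6, another Polycomb subunit gene before APOBEC3A, had a log2 difference of -0.93 (SE 0.29, edgeR adjusted p = 0.180), with groups that overlapped. SUN2, which links the nucleus to the cytoskeleton, was at 0.97 (adjusted p = 0.222) and RPL3, a ribosomal protein gene beyond CBX7, at 0.71 (adjusted p = 0.252). TOMM22, a mitochondrial import receptor gene, was at -0.40 (adjusted p = 0.217), and SYNGR1 at -0.90 (adjusted p = 0.569), with 0.604 CPM in S04, 6.25 in C12 and 18.4 to 23.8 in the other clones. The remaining tested neighbours, CBY1, JOSD1, GTPBP1, DNAL4, TAB1, MIEF1 and ATF4, had log2 differences between -0.19 and 0.36. ATF4, a stress-response transcription factor gene, was at 251 CPM in S04, where APOBEC3C was also lowest, and at 909 in C15, where APOBEC3C was highest. The median over 285 tested genes of chromosome 22 lay between -0.07 and 0.08 of the wild-type mean, on the log2 scale, in each knockout clone.

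**Figure D4:**
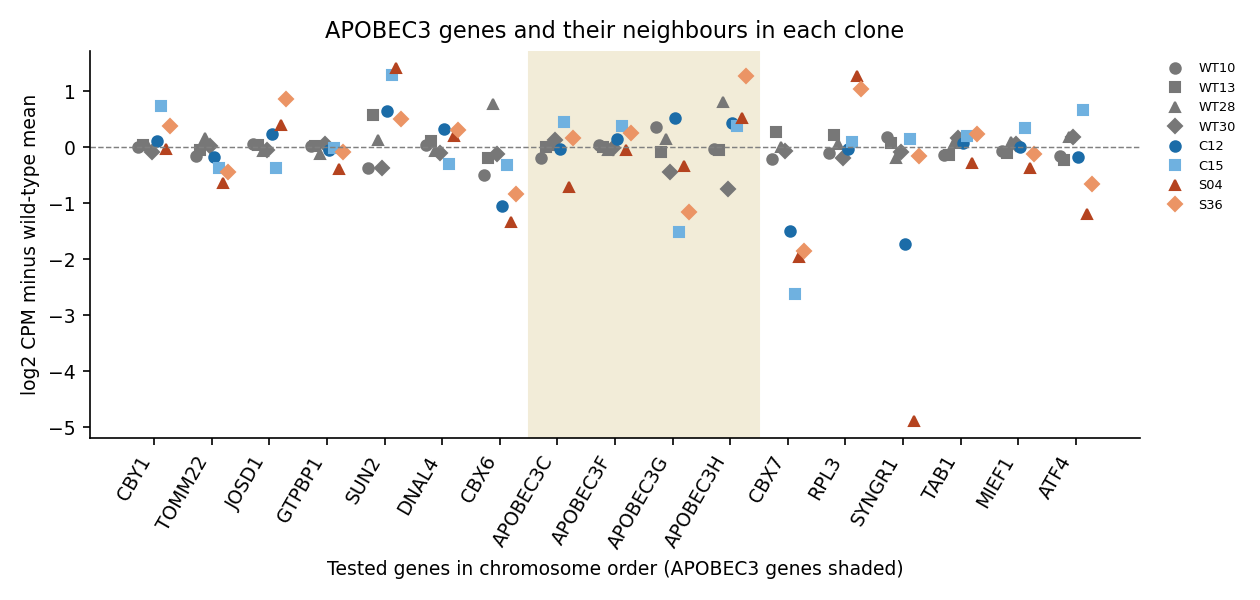
Log2 CPM of the tested APOBEC3 genes (shaded) and their tested neighbours, in chromosome order and each minus its wild-type mean, with 1 point per clone. CBX7 is the neighbour whose 4 knockout clones all lie below the wild-type clones by more than 1 on this scale, while APOBEC3G is below 0 in C15, S04 and S36 and above it in C12.

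Besides the neighbours, 7 lists of genes related to the APOBEC3 enzymes by function or regulation held 112 genes, of which 98 were tested and 0 passed edgeR's test, where 0.316% of all tested genes did. At an unadjusted p under 0.05 there were 18 of the 98 (18.4%), against 15.5% of all tested genes. At an adjusted p of 0.05 DESeq2 called 5 of the 98, where it called 3.89% of all genes it tested. For limma-voom it was 0 of the 98, where 0.66% of all tested genes passed. Among other APOBEC-family and RNA deaminases, 6 of 10 were tested and 0 passed, with a median log2 difference of 0.07. ADARB1, an adenosine deaminase of RNA, had a difference of 0.62 (SE 0.23, edgeR adjusted p = 0.233), DCTD one of 0.21 and APOBEC2 one of 0.55. APOBEC4 had 25 counts over all clones and APOBEC1 none.

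Uracil left by a deaminase is removed by UNG and related enzymes, and the repair and bypass list held 20 genes, all tested. Of these 0 passed, and the median log2 difference was -0.01. MSH6, a mismatch repair gene, was at -0.52 (SE 0.15, adjusted p = 0.155), PRIMPOL at 0.73 (adjusted p = 0.253) and FEN1 at -0.53 (adjusted p = 0.269). In the C-named against S-named comparison TDG, a DNA glycosylase gene, passed with 1.15 (SE 0.18, edgeR adjusted p = 0.049). The call was lost without any 1 of WT10, WT13, WT28 and WT30 (edgeR adjusted p = 0.119 to 0.145). It was also lost with RLE scaling (0.051), at least 10 counts in 4 clones (0.0505) and thinned libraries (0.0552). It held with no filter, DESeq2 and limma-voom. The difference was 1.21 without C15 and 1.17 without S04, fits that leave a single clone of that letter. All 10 genes for single-stranded DNA binding and the replication stress response were tested and 0 passed, with ATR at 0.44 (adjusted p = 0.206), CLSPN at -0.40 and TOPBP1 at 0.22.

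Among 26 other factors that restrict retroviruses or retrotransposons, 24 were tested, 0 passed, and the median log2 difference was 0.14. IFITM2, a membrane protein that blocks viral entry, was at 88.9, 120, 120 and 98.9 CPM in C12, C15, S04 and S36 and at 58.2, 69.1, 41.7 and 34.3 in WT10, WT13, WT28 and WT30. Its groups did not overlap, as was so for 10.1% of all tested genes. The IFITM2 difference of 1.07 (SE 0.22) had an edgeR adjusted p of 0.087. TRIM22 was at 1.06 (adjusted p = 0.159) and OAS3 at 0.65 (adjusted p = 0.169). MORC2, a silencing factor, passed between C-named and S-named clones at -1.25 (SE 0.21, edgeR adjusted p = 0.049). This call was lost without any 1 of WT10, WT13, WT28 and WT30 (edgeR adjusted p = 0.126 to 0.149). It was also lost with RLE scaling (0.0511), at least 10 counts in 4 clones (0.0505) and thinned libraries (0.0974). It held with no filter, DESeq2 and limma-voom. Without C15, which leaves a single C-named clone, the difference was -1.34.

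Interferon and NF-kB signalling are known inducers of APOBEC3 genes, and 14 of 20 listed inputs were tested, of which 0 passed (median log2 difference 0.02). IFIH1, an RNA sensor, was at -0.62 (adjusted p = 0.171) and IRF1 at -0.33 (adjusted p = 0.418). IRF7 had 52 counts over all clones, STING1 38, RIGI 21, NFKB1 15, CGAS 12 and IRF9 none, and these were the 6 listed inputs left untested. The DREAM complex and RB-E2F regulators, tied in other cells to APOBEC3B, had 20 of 22 genes tested and 0 that passed (median 0.14), with E2F6 at -0.67 (adjusted p = 0.118), E2F7 at 0.76 (adjusted p = 0.165) and TFDP2 at -0.37 (adjusted p = 0.259). MSH6, IFIH1 and E2F6 all lie on chromosome 2, where the median over 811 tested genes was -0.31. Its part in their values was not tested.

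RUNX1, RUNX2, RUNX3 and their partner CBFB were tested because the series title names RUNX1 and because CBFB is known to partner HIV Vif, the protein that removes APOBEC3 enzymes. None of the 4 passed. RUNX1 was at 232 ± 59.5 CPM in knockout and 196 ± 9.23 in wild-type clones (SD, n = 4 each), a log2 difference of 0.25 (edgeR adjusted p = 0.547). CBFB was at 121 ± 18.1 and 96.5 ± 5.60 CPM, a difference of 0.33 (SE 0.14, edgeR adjusted p = 0.302). Its knockout clones lay above every wild-type clone, and 10.1% of all tested genes had groups that did not overlap. RUNX3 was at 0.43 (adjusted p = 0.590) and RUNX2 at -0.21 (adjusted p = 0.871).

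**Figure D5:**
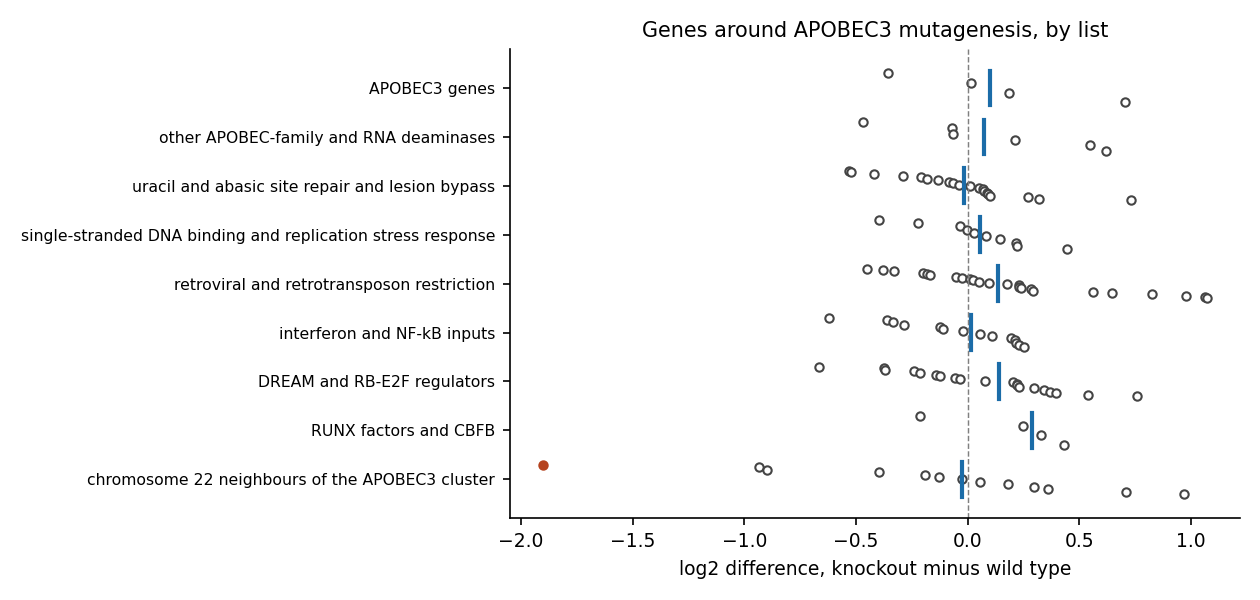
Log2 difference between knockout and wild-type clones for each tested gene of the APOBEC3 family, of 7 lists of related genes and of the chromosome 22 neighbours; each point is a gene, a filled point passed an adjusted p of 0.05 and the blue bar is the list's median. CBX7, at -1.90, is the single filled point, and the 4 APOBEC3 genes lie between -0.35 and 0.70.

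The genes whose levels most resembled each tested member were found by Pearson's r of log2 CPM over the 8 clones. These are descriptions, since all points share the same libraries and depths and the genes were picked from 14243. APOBEC3C was most like RAB24 (r = 0.990), SSU72 (0.989) and NCBP2AS2 (0.988), and APOBEC3F most like EIF4EBP1 (0.988), UBR2 (0.980) and PEMT (0.973). APOBEC3G was most like ZNF329 (0.981) and RBM27 (0.976), and APOBEC3H most like ENSG00000279089 (0.965), CARD8-AS1 (0.926) and ITGA10 (0.914). None of the genes named here passed the test between knockout and wild-type clones. Among the members themselves r was 0.68 for APOBEC3C with APOBEC3F, -0.68 for APOBEC3F with APOBEC3G and -0.49 for APOBEC3C with APOBEC3G, over the same 8 clones, so no member appeared among the 3 genes most like another.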

How the data were processed

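Total RNA from 8 clones was sequenced on Illumina libraries, and the authors deposited raw counts per gene symbol. The submitters' processing notes list FastQC, TopHat2, SAMtools, Subread and hg38. Roles, versions, annotation, strand setting and the rule for reads in several genes were not given in the sources used here. Clones were grouped by title and design text. Pairs of clones of 1 group differed by a chi-square per degree of freedom of at least 12.3, so none was taken for a copy.

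Genes were filtered with filterByExpr and scaled by TMM. Groups were compared with edgeR 4.0.16 (quasi-likelihood, R 4.3.3), two-sided, with p-values adjusted by Benjamini-Hochberg over 14243 genes. The procedure was also run on simulated counts that gave each gene the same spread in every clone. The wider spread of the knockout clones was not simulated, so that run does not check the tests under it. Single members were also compared by exact permutation of mean log2 CPM (prior count 2), for 4 members, unadjusted. Lengths, exons and coding sequences came from GENCODE release 29. Alternatives were DESeq2 1.42.0, limma-voom 3.58.1, RLE scaling, other filters, libraries thinned to 2730285 counts, other gene lengths, a prior count of 0.5, leaving out each clone, and C-named or S-named clones alone. Named genes were all members, RUNX factors and CBFB, tested neighbours, and in other lists those that passed plus the 3 with the smallest p, and for each tested member the 3 genes most like it. Some genes that these rules name are not reported here. The members, lists and rules were chosen with earlier results of these data known.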

Additional observations from a re-analysis of the deposited data

Results flagged for a closer look

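A sample was singled out where it stood apart from the other 3 clones of its group by Dixon's criterion at the 95% level. This held for 6 of 124 groups checked over 64 genes, and chance gives about 6.2. Among APOBEC3 genes it was APOBEC3H in S36, at 0.78 log2 CPM against -0.12 to 0.03 in the other knockout clones, from 21 counts. APOBEC2 in S36 was at -1.54 log2 CPM, below 0.34 to 0.43 in the others. ATR in WT28 was at 4.96, below 5.16 to 5.21, and TOPBP1 in WT10 at 7.67, above 7.43 to 7.46. CD79A in S04 was at -0.60, below 1.34 to 1.51, and NKG7 in WT28 at 3.60, above 2.20 to 2.35. A tested difference between C-named and S-named clones was found for the neighbour RPL3, at -1.13 on the log2 scale (edgeR adjusted p = 0.049). It was lost without any 1 of WT10, WT13, WT28 and WT30 (edgeR adjusted p = 0.126 to 0.145). The same held with RLE scaling (0.0511), at least 10 counts in 4 clones (0.0505) and thinned libraries (0.0552). The call was kept with no filter, DESeq2 and limma-voom. The difference was -1.19 without C15 and -1.01 without S04, fits that leave a single clone of that letter.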

How the results depend on the processing

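No APOBEC3 member passed an adjusted p of 0.05 in any alternative fit. There were 16 such fits between knockout and wild-type clones and 14 between C-named and S-named clones. Each was read for up to 4 tested members, which gave 118 results for single members, 117 of them with an adjusted p. The lowest was 0.155 between knockout and wild-type clones, for APOBEC3G with S-named clones alone, and 0.0755 between C-named and S-named clones, for APOBEC3C without S36. The sign of APOBEC3C turned to -0.040 with no filter on low counts, -0.089 with limma-voom, -0.22 with S-named clones alone and between -0.16 and 0.20 with 1 clone left out (negative without C15, -0.16, S36, -0.05, or WT10, -0.05). APOBEC3G turned to 0.018 with C-named clones alone, and its C-named minus S-named difference ran from -0.85 to 1.23 with 1 clone left out. APOBEC3H did not pass the filter in the thinned libraries. For wild-type means, the order of members per kilobase was kept with the union of exons and with the longest transcript. With the union of exons APOBEC3F was at 6.76, APOBEC3G at 1.98 and APOBEC3H at 0.521 CPM per kilobase. With the longest transcript APOBEC3G was at 3.88. Single clones and knockout means were not compared at these other lengths. The order of APOBEC3G and APOBEC3H in each clone is therefore given for principal transcripts only. For APOBEC3D all these lengths are 2528 bases, so they cannot show what its overlap with the readthrough gene does to its place.

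The count of genes past the threshold between knockout and wild-type clones, 45, was 581 with no filter, 521 with DESeq2, 94 with limma-voom, 3 in thinned libraries, 6 with C-named and 2211 with S-named clones alone, and 3 to 456 with 1 clone left out. For C-named against S-named clones, 51 became 14 with RLE scaling, 14 with at least 10 counts in 4 clones, 762 with no filter, 651 with DESeq2, 89 with limma-voom, 10 in thinned libraries and 0 to 749 with 1 clone left out. The counts of 0 were edgeR's without any 1 wild-type clone. In the lists the count of 1, of 111 tested, was 4 with no filter, 6 with DESeq2 and 0 in thinned libraries. It was 0 with C-named and 27 with S-named clones alone, and 0 to 5 with 1 clone left out. Of all tested genes, 1.85% passed with no filter, 3.89% with DESeq2 and 0.0305% in thinned libraries. That share was 0.0395% with C-named and 14.5% with S-named clones alone, and 0.0203% to 3.13% with 1 clone left out. The list counts were chosen after seeing the data. The cause of these changes was not tested. No paired analysis was possible because the clone names share no replicate numbers. Counts were few or 0 for APOBEC3A, APOBEC3B, APOBEC3D and APOBEC3H, and depth limited C15 throughout. Whether depth or the counting of shared reads set those low counts was not tested.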
